A study of Mus musculus with 20 samples.

Results

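The genes described here are 36 genes of the lysosome, among 36528 gene models in each of 20 RNA-seq libraries. They were listed by name and found in the files by Entrez number, by a rule that uses no measured value although earlier results of these data were known, and all 36 were expressed well enough to be tested. The libraries came from macrophages and monocytes sorted from MC38 tumours, which grow in mice from a transplanted colon carcinoma line. Mice had received aPDL1, an antibody to the PD-1 binding protein PD-L1, or belonged to a ctrl group, and RNA was taken on day 7 of treatment. The 4 groups were macrophages from aPDL1 tumours, macrophages from ctrl tumours, monocytes from aPDL1 tumours and monocytes from ctrl tumours, with 5 libraries each. The labels used here do not name the mouse strain, the dose of antibody, what ctrl mice received or the surface markers of the sort. Nor do they give the animal behind each of the 5 libraries of a group, and p-values therefore rest on a spread between libraries that may be technical. Every ctrl library has a lower sample number than every aPDL1 library, so treatment and the order of these numbers cannot be told apart.

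Lysosomes are acidic compartments in which proteins, glycans, lipids and nucleic acids taken up or turned over by the cell are broken down. Their soluble enzymes include the cathepsins, which cut proteins, and glycosidases, which trim sugars from glycoproteins and glycolipids. The limiting membrane is lined by heavily glycosylated proteins such as LAMP1 and LAMP2 and holds the vacuolar proton pump. In macrophages the compartment digests engulfed cells, and in antigen-presenting cells cathepsins trim the invariant chain of MHC class II. TFEB, TFE3 and MITF are related transcription factors that bind short promoter elements of many lysosomal genes, the CLEAR elements, and are held in the cytoplasm by mTORC1 when nutrients are plentiful.

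Depth was even, at 30191509 to 36514133 counts per library, and differences below refer to edgeR's quasi-likelihood test over 15390 genes. A gene was called at a Benjamini-Hochberg adjusted p under 0.05. Log2 fold changes carry standard errors (SE). The 95% intervals were computed from these with the normal distribution, which makes them somewhat narrow with 5 libraries per group. Levels are the deposited nRPKM, which are counts divided by gene length and by a size factor of the library, so they can be compared between genes. Markers of the sorted cells followed the labels, since 9 of 10 macrophage markers were higher in macrophages of both treatments, with a median summed level of 23227 nRPKM in aPDL1 and 18288 nRPKM in ctrl macrophages, against 4509 nRPKM in aPDL1 and 3958 nRPKM in ctrl monocytes. All 8 monocyte markers were lower in macrophages. Markers of other cells differed between the sorted types as well. All 6 tested neutrophil markers were lower in macrophages of both treatments, with a summed level of 19.6 to 29.2 nRPKM in aPDL1 and 11.8 to 19.3 nRPKM in ctrl macrophages, against 117 to 626 nRPKM in aPDL1 and 89.8 to 585 nRPKM in ctrl monocytes. The 5 B cell markers summed to 12.6 to 24.9 nRPKM in aPDL1 and 10.6 to 23.4 nRPKM in ctrl macrophages, against 4.27 to 5.81 nRPKM in aPDL1 and 3.93 to 7.1 nRPKM in ctrl monocytes. Of 7 dendritic cell markers, 2 were higher and 5 lower in macrophages of aPDL1 tumours and 2 higher and 3 lower in ctrl tumours. The 6 epithelial markers of the tumour line summed to 12.6 to 24.2 nRPKM in aPDL1 and 5.94 to 12.2 nRPKM in ctrl macrophages. In monocytes these summed to 3.22 to 9.94 nRPKM in aPDL1 and 6.68 to 9.77 nRPKM in ctrl libraries. Of the 2 that were tested, Cdh1 was higher and Epcam lower in macrophages of aPDL1 tumours. The part of all these cells in the differences between macrophages and monocytes, or after aPDL1, was not tested. The libraries also differed in fibroblast transcripts. The sum over 19 fibroblast markers was 20.6 to 109 nRPKM in aPDL1 macrophages against 33.8 to 583 nRPKM in ctrl macrophages, and 19.3 to 157 nRPKM in aPDL1 monocytes against 100 to 934 nRPKM in ctrl monocytes. No marker of the list was at 0 in every library of a group. The 6 libraries with the highest mean fibroblast level were all ctrl libraries, namely macrophage replicates 1, 3 and 5 and monocyte replicates 1, 3 and 4.

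The promoters of these genes were first searched for a short element. The motif searched was CACGTG, an E-box that reads the same on both strands, and its extended form TCACGTG, which was searched on both strands and always contains the shorter motif. RefSeq windows from 250 bases before to 50 bases after a gene start on GRCm38.p6 existed for 29 of the 36 genes, 6 of which have more than 1 start and window. A gene was counted when any of its windows held the motif. Of these 29, 9 (31.0%) held CACGTG, against 8.09% of 27025 genes with a window. The longer TCACGTG was present in 8 of the 29 (27.6%), against 4.29% of all genes. By window, 9 of 37 (24.3%) held CACGTG, against 7.15% of all 32851. The stretches around the motifs upstream of the gene start are shown for the genes in which the extended form lay within 150 bases of a start. Capitals mark CACGTG, sequences run 5′ to 3′ on the gene's strand, and positions count back from the start of that window. The Ctsa and Lgmn stretches belong to a second start that lies inside the annotated gene, and the window at the outer start of these genes held no copy.
Lamp1, chr8:13159080-13159160, plus strand: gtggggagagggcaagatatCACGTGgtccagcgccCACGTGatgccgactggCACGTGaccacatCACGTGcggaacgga
Mcoln1, chr8:3500428-3500499, plus strand: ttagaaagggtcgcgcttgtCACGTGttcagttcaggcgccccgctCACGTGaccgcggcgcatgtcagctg
Ctsd, chr7:142387900-142387945, minus strand: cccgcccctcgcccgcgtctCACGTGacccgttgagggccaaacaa
Ctsa, chr2:164833741-164833772, plus strand: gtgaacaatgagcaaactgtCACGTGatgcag
Glb1, chr9:114401010-114401055, plus strand: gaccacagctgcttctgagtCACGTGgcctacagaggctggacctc
Gaa, chr11:119267803-119267848, plus strand: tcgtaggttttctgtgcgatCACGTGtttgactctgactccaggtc
Lgmn, chr12:102439116-102439161, minus strand: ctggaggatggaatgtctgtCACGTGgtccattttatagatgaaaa
The Lamp1 window held 4 copies of CACGTG, at -61, -45, -28 and -15, and that of Mcoln1 held 2, at -71 and -45. Single copies began at -98 in Ctsd, -12 in Ctsa, -48 in Glb1, -140 in Gaa and -49 in Lgmn, with a further copy each at -245 in Ctsd and at 6 in Ctsa. Gla held copies at -227 and -194, and Ctsl held one at -236 without the flanking T. A match is a string of letters and not a measured binding site.

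Ctss, cathepsin S, which acts on the invariant chain, had the highest level, with a mean of 5182 nRPKM over the 20 libraries. Psap, the precursor of the saposins that help lipid enzymes reach their substrates, followed with 2844 nRPKM. Lgmn, the asparaginyl endopeptidase legumain, averaged 1155 nRPKM and Ctsz, the carboxypeptidase cathepsin Z, 888 nRPKM. At the low end stood Mitf with 4.15, Ctsk with 1.78 and Atp6v0d2 with 0.795 nRPKM. Together the 36 genes took a median of 4.96% of all counts in aPDL1 macrophages (range 4.83% to 5.25%) and 4.41% in ctrl macrophages (3.84% to 5.06%). They took 3.39% in aPDL1 monocytes (3.32% to 3.61%) and 3.07% in ctrl monocytes (2.67% to 3.22%). The ranges of these shares did not overlap between macrophage and monocyte libraries, nor between aPDL1 and ctrl monocytes. As summed nRPKM the ranges overlapped between ctrl macrophages and monocytes, and between aPDL1 and ctrl monocytes. Those of aPDL1 macrophages lay above all monocyte libraries. The 36 genes summed to 20193 to 22789 nRPKM in aPDL1 and 13230 to 20440 nRPKM in ctrl macrophages. In monocytes they summed to 15268 to 17564 nRPKM in aPDL1 and 9785 to 15383 nRPKM in ctrl libraries. The spread between replicates was narrower in the aPDL1 groups: the median coefficient of variation of the 36 genes was 8.5% in aPDL1 and 15.2% in ctrl macrophages, and 9.8% in aPDL1 and 18.5% in ctrl monocytes. Single libraries accounted for much of the order within groups. In aPDL1 macrophages replicate 5 held the highest value for 17 genes and replicate 2 the lowest for 15. In aPDL1 monocytes replicate 2 held the highest for 17 and replicate 4 the lowest for 12. Ctrl macrophage replicate 4 held the highest of the 5 values for 25 of the 36 genes and replicate 5 the lowest for 19. Ctrl monocyte replicate 5 held the highest value for 24 genes and replicate 3 the lowest for 22. Among ctrl macrophages, replicate 4 had the lowest mean fibroblast marker level (1.797 log2 CPM) and replicate 5 the highest (5.688). Among ctrl monocytes replicate 5 was the lowest at 3.189 and replicate 3 the highest at 6.243. In aPDL1 macrophages replicate 2 was the highest at 3.32, while replicate 5, at 1.626, was not the lowest. Neither aPDL1 monocyte replicate 2 (1.868) nor 4 (2.319) was an extreme. The part of this level in the order was not tested.

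**Figure D1:**
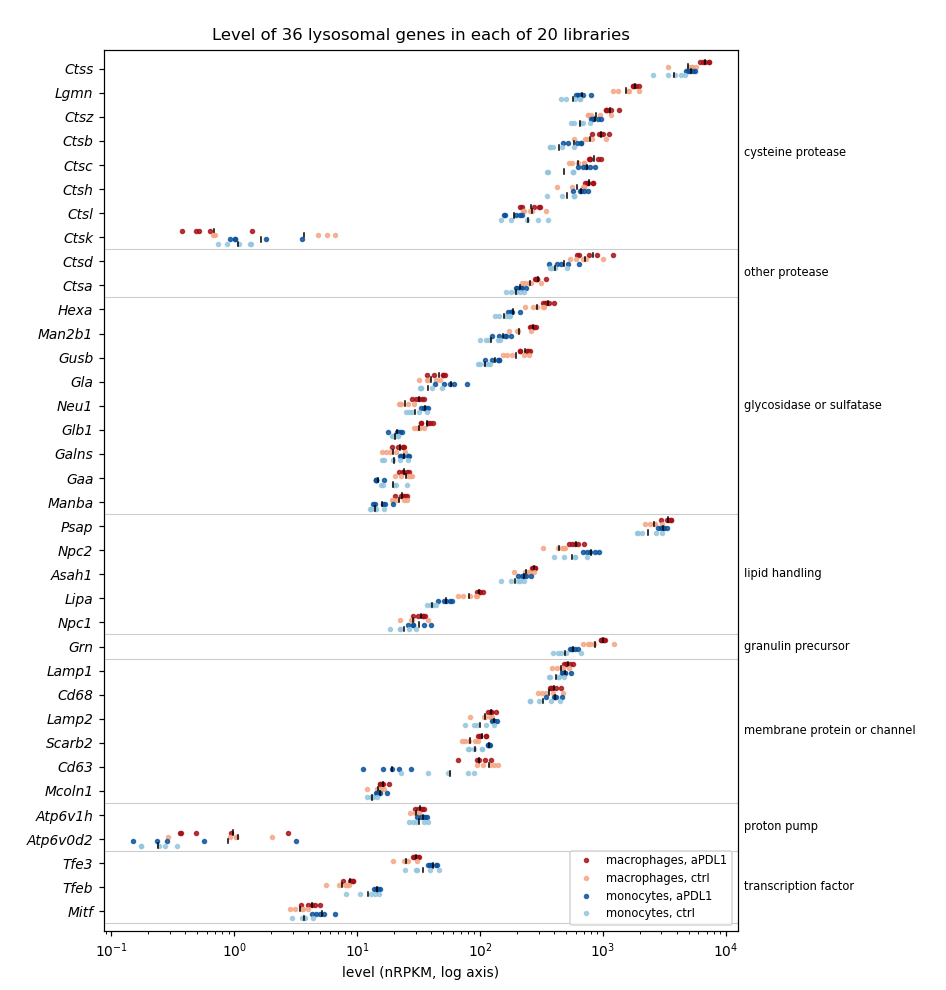
Level of each gene in each library in nRPKM (log axis), grouped by role, with 1 point per library, a black tick at the mean of the 5 libraries and colours for the 4 groups. Ctss and Psap lie highest, Ctsk and Atp6v0d2 lowest, and the macrophage points of Lgmn, Hexa and Lipa lie to the right of their monocyte points.

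In tumours of both treatments, more of the 36 genes were higher than lower in macrophages. In aPDL1 tumours 17 of the 36 genes were higher in macrophages, beside 28.2% of all genes tested, and 3 were lower, beside 25.7%. In ctrl tumours 19 were higher, beside 24.0% of all genes, and 2 were lower, beside 20%. The median log2 fold change of the 36 genes was 0.22 in aPDL1 and 0.36 in ctrl tumours, against -0.01 in aPDL1 and 0.00 in ctrl tumours over all genes tested. The higher calls lay mostly among proteases and glycosidases, and the lower calls included both Tfeb and Tfe3. In aPDL1 tumours the macrophage libraries lay above all monocyte libraries for 15 of the 36 genes (24.1% of all genes did so) and below them for 3 (23.0%). In ctrl tumours these numbers were 11 (13%) and 0 (11.5%).

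**Figure D2:**
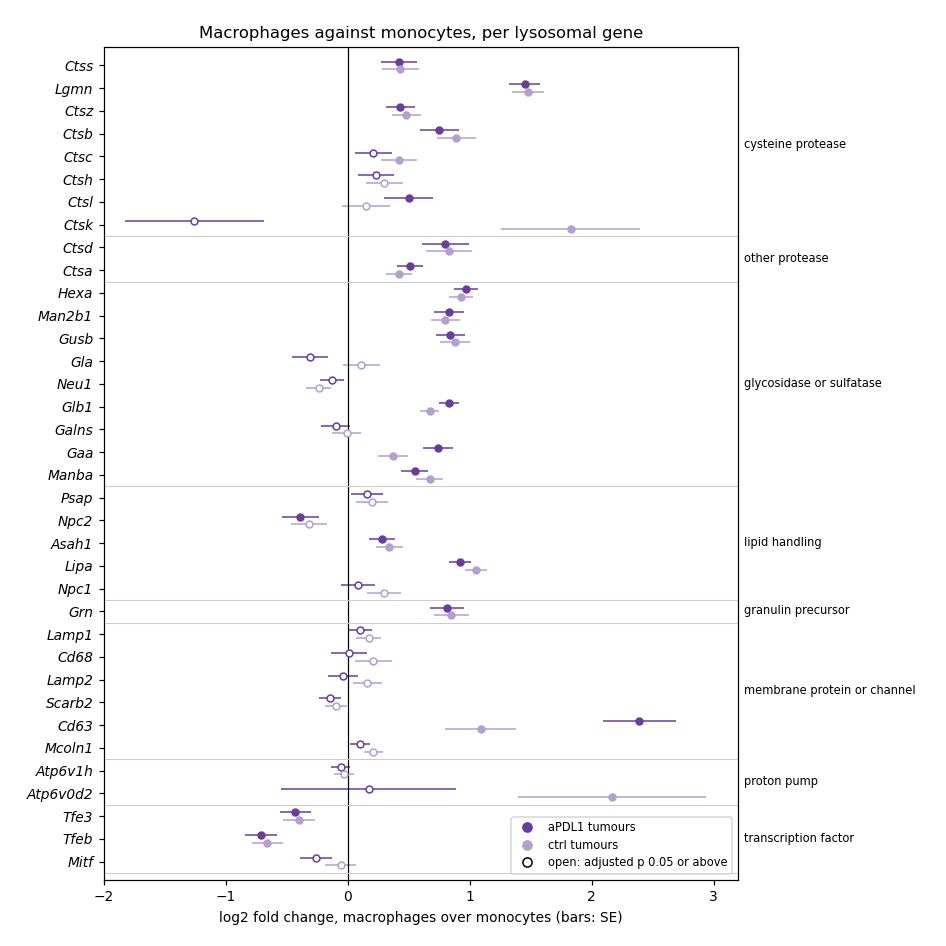
Log2 fold change of macrophages over monocytes for each gene, in aPDL1 tumours (dark) and ctrl tumours (light), with bars of 1 SE and open points where the adjusted p was 0.05 or above. Lgmn, Hexa, Lipa, Glb1 and Cd63 lie to the right of 0 in both, and Tfeb and Tfe3 to the left.

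Among the 8 cysteine proteases, 5 were higher in macrophages in aPDL1 tumours and 6 in ctrl tumours. Lgmn (chromosome 12, 102394082 to 102439728) had the smallest p of them. It stood at 1783, 1850, 1755, 1768 and 1980 nRPKM in aPDL1 macrophages, against 629, 658, 604, 696 and 805 nRPKM in aPDL1 monocytes. Ctrl tumours held 1590, 1642, 1320, 1954 and 1218 nRPKM of Lgmn in macrophages, against 499, 591, 455, 654 and 657 nRPKM in monocytes. Every macrophage library was thus above every monocyte library, by a log2 fold change of 1.45 in aPDL1 tumours (SE 0.13, adjusted p = 3.77e-08) and 1.48 in ctrl tumours (SE 0.13, adjusted p = 4.97e-08). Ctsb, cathepsin B, an abundant endopeptidase, had 925, 962, 818, 1008 and 1132 nRPKM in aPDL1 macrophages, against 519, 663, 664, 475 and 614 nRPKM in aPDL1 monocytes. In ctrl tumours Ctsb had 750, 820, 721, 1058 and 586 nRPKM in macrophages, against 390, 469, 371, 372 and 583 nRPKM in monocytes, so that the lowest macrophage and the highest monocyte library nearly met. Its log2 fold change was 0.75 in aPDL1 tumours (SE 0.16, adjusted p = 4.81e-04) and 0.89 in ctrl tumours (SE 0.16, adjusted p = 1.31e-04). Ctsz was higher by 0.43 and Ctss by 0.42 on the log2 scale in aPDL1 tumours, and by 0.48 and 0.43 in ctrl tumours. The Ctss call in ctrl tumours ended without any 1 of 6 libraries, with the adjusted p between 0.0618 and 0.103: ctrl macrophage replicates 1 to 4 and ctrl monocyte replicates 1 and 3. Ctsl, cathepsin L, passed only in aPDL1 tumours, at 0.50 (SE 0.20, adjusted p = 0.0438), and Ctsc, which activates serine proteases of granules, only in ctrl tumours, at 0.42 (SE 0.15, adjusted p = 0.0298). Leaving out 1 library ended the Ctsl call in 6 of 20 fits, those without aPDL1 macrophage replicate 2, 4 or 5, aPDL1 monocyte replicate 1 or 4 or ctrl monocyte replicate 1, and the Ctsc call in 12 of 20, with adjusted p up to 0.124 without ctrl macrophage replicate 2. For Ctsc the difference was 0.21 in aPDL1 tumours (95% interval -0.08 to 0.51), and for Ctsl it was 0.15 in ctrl tumours (-0.25 to 0.55). Whether these fold changes differ between treatments is the interaction test given further on.

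Both other proteases were higher in macrophages. Ctsd, the aspartic protease cathepsin D, had 613, 779, 644, 893 and 1209 nRPKM in aPDL1 macrophages, against 425, 643, 457, 366 and 523 nRPKM in aPDL1 monocytes. In ctrl tumours Ctsd had 691, 724, 600, 1006 and 539 nRPKM in macrophages, against 370, 405, 380, 388 and 512 nRPKM in monocytes. The groups overlapped by 1 library in aPDL1 tumours and were apart in ctrl tumours, with log2 fold changes of 0.80 (SE 0.19, adjusted p = 0.0016) and 0.83 (SE 0.19, adjusted p = 0.00156). Ctsa, the protective protein that keeps β-galactosidase and neuraminidase stable, was higher by 0.51 in aPDL1 tumours (SE 0.11, adjusted p = 4.32e-04) and by 0.42 in ctrl tumours (SE 0.11, adjusted p = 0.00309). Reads of Ctsa may be shared with Pltp, whose annotated span overlaps it by 1515 bases, since the strand setting of the counting is not given.

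Of the 9 glycosidases and sulfatases, the same 6 were higher in macrophages in tumours of both treatments: Hexa, Glb1, Gusb, Man2b1, Manba and Gaa. Hexa (chromosome 9, 59539540 to 59565109), the α chain of hexosaminidase A, which degrades gangliosides, had 341, 342, 328, 368 and 397 nRPKM in aPDL1 macrophages, against 180, 179, 168, 184 and 212 nRPKM in aPDL1 monocytes. The Hexa values in ctrl tumours were 293, 330, 270, 327 and 232 nRPKM in macrophages, against 163, 176, 133, 144 and 172 nRPKM in monocytes. The groups did not overlap in either, and the log2 fold change was 0.97 in aPDL1 tumours (SE 0.10, adjusted p = 2.17e-07) and 0.93 in ctrl tumours (SE 0.10, adjusted p = 5.95e-07). Glb1, the lysosomal β-galactosidase whose promoter stretch is shown above, had 33, 33.1, 38.1, 39.2 and 41.9 nRPKM in aPDL1 macrophages, against 22.2, 21.4, 17.8, 21.1 and 23.3 nRPKM in aPDL1 monocytes. In ctrl tumours Glb1 had 30.5, 32.8, 29.1, 34.9 and 31.1 nRPKM in macrophages, against 19.8, 21.4, 19.4, 20.4 and 21.5 nRPKM in monocytes. These groups did not overlap either, with a log2 fold change of 0.83 in aPDL1 (SE 0.08, adjusted p = 7.34e-08) and 0.67 in ctrl tumours (SE 0.08, adjusted p = 1.57e-06). Gusb, the β-glucuronidase, was higher by 0.84 in aPDL1 tumours (SE 0.12, adjusted p = 9.08e-06) and by 0.88 in ctrl tumours (SE 0.12, adjusted p = 7.55e-06). The α-mannosidase Man2b1 was higher by 0.83 in aPDL1 and 0.80 in ctrl tumours (adjusted p = 9.74e-06 and 2.39e-05), and the β-mannosidase Manba by 0.55 and 0.67 (adjusted p = 2.13e-04 and 4.28e-05).

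Gaa, the acid α-glucosidase that breaks down lysosomal glycogen, was higher in macrophages by 0.74 in aPDL1 tumours (SE 0.12, adjusted p = 3.36e-05) and by 0.37 in ctrl tumours (SE 0.12, adjusted p = 0.0154). Its levels were 21.8 to 26.7 nRPKM in aPDL1 macrophages against 14.2 to 16.6 nRPKM in aPDL1 monocytes, and 20.5 to 28 nRPKM in ctrl macrophages against 15.8 to 25.7 nRPKM in ctrl monocytes. The Gaa call in ctrl tumours ended without ctrl macrophage replicate 4 (adjusted p = 0.0597). The remaining 3 genes of the class did not pass in either. Gla, the α-galactosidase, differed by -0.31 in aPDL1 tumours (95% interval -0.61 to -0.02, adjusted p = 0.0817) and by 0.11 in ctrl tumours (-0.18 to 0.41). Neu1, a sialidase, differed by -0.13 in aPDL1 tumours (-0.32 to 0.06) and by -0.24 in ctrl tumours (-0.43 to -0.05, adjusted p = 0.0507). Galns, a sulfatase acting on keratan and chondroitin sulfate, differed by -0.10 (-0.34 to 0.14) and -0.01 (-0.25 to 0.24).

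Among the 5 lipid-handling genes, Lipa and Asah1 were higher in macrophages of both treatments. Lipa (chromosome 19, 34492316 to 34527474), the acid lipase that frees cholesterol from its esters, had 94, 98.3, 97.4, 101 and 105 nRPKM in aPDL1 macrophages, against 51.3, 57.1, 59.2, 45.5 and 52.7 nRPKM in aPDL1 monocytes. In ctrl tumours Lipa had 66.7, 83.7, 92.2, 95.1 and 72.2 nRPKM in macrophages, against 41.9, 44, 40.2, 37.1 and 40.3 nRPKM in monocytes. No libraries overlapped, and its log2 fold change was 0.92 in aPDL1 tumours (SE 0.09, adjusted p = 1.34e-07) and 1.05 in ctrl tumours (SE 0.09, adjusted p = 4.49e-08). Asah1, acid ceramidase, was higher by 0.28 in aPDL1 (SE 0.11, adjusted p = 0.0322) and 0.34 in ctrl tumours (SE 0.11, adjusted p = 0.0148). The Asah1 call in ctrl tumours ended without ctrl macrophage replicate 1, 2 or 4 (adjusted p = 0.0678, 0.0669 and 0.0526). Npc2, which hands cholesterol to the membrane transporter NPC1, ran the other way. It had 563, 634, 529, 709 and 594 nRPKM in aPDL1 macrophages, against 695, 933, 784, 743 and 871 nRPKM in aPDL1 monocytes. The groups overlapped, and Npc2 was lower in aPDL1 macrophages by a log2 fold change of -0.39 (SE 0.15, adjusted p = 0.0337). That call was lost in 13 of the 20 fits that left out 1 library, with adjusted p up to 0.119 without aPDL1 macrophage replicate 3. In ctrl tumours Npc2 differed by -0.32 (SE 0.15, adjusted p = 0.091). Psap differed by 0.16 in aPDL1 (95% interval -0.10 to 0.42) and 0.20 in ctrl tumours (-0.06 to 0.46), and Npc1 by 0.08 (-0.20 to 0.35) and 0.30 (0.03 to 0.58). Grn, which encodes progranulin, the precursor that lysosomes process to granulins, was higher in macrophages by 0.81 in aPDL1 tumours (SE 0.14, adjusted p = 7.58e-05) and by 0.85 in ctrl tumours (SE 0.14, adjusted p = 6.87e-05).

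Of the 6 membrane proteins, Cd63 passed the test between cell types. With neighbouring libraries as a block, Lamp1, Cd68 and Mcoln1 passed too in ctrl tumours, as higher, and Scarb2 in aPDL1 tumours, as lower. Cd63 (chromosome 10, 128896231 to 128912822), a tetraspanin of late endosomes and exosomes, had 94.6, 98.5, 66.9, 110 and 123 nRPKM in aPDL1 macrophages, against 11.2, 21.8, 27.4, 16.2 and 19.4 nRPKM in aPDL1 monocytes. In ctrl tumours it had 141, 121, 93.9, 129 and 106 nRPKM in macrophages, against 54.9, 37.6, 79.5, 88.7 and 22.6 nRPKM in monocytes. All macrophage libraries were above all monocyte libraries, by 2.39 in aPDL1 tumours (SE 0.30, adjusted p = 2.33e-06) and 1.09 in ctrl tumours (SE 0.29, adjusted p = 0.00467). Ctrl monocyte replicates 3, 4 and 1, which were highest in Cd63 among ctrl monocytes, were also the ones highest in fibroblast markers, and without the 6 fibroblast-rich libraries the log2 fold change in ctrl tumours was 2.08 (adjusted p = 2.85e-04). As these are bulk samples, fewer cells of a type and less RNA per cell cannot be told apart. Lamp1, a major glycoprotein of the lysosomal membrane with 4 E-boxes, had 479 to 577 nRPKM in aPDL1 macrophages, against 464 to 548 nRPKM in aPDL1 monocytes, and differed by 0.10 (95% interval -0.09 to 0.29). In ctrl tumours it had 389 to 531 nRPKM in macrophages, against 363 to 483 nRPKM in monocytes, and differed by 0.17 (-0.02 to 0.36). Its partner Lamp2 differed by -0.04 (-0.28 to 0.19) in aPDL1 and 0.16 (-0.07 to 0.40) in ctrl tumours. Cd68, the macrophage-associated member of the LAMP family often used to stain macrophages, had 370 to 460 nRPKM in aPDL1 macrophages against 347 to 466 nRPKM in aPDL1 monocytes, a difference of 0.01 (-0.28 to 0.29). In ctrl tumours Cd68 had 298 to 478 nRPKM in macrophages against 254 to 449 nRPKM in monocytes, a difference of 0.21 (-0.08 to 0.50). Scarb2, the receptor that carries β-glucocerebrosidase to lysosomes, lay lower in all 5 aPDL1 macrophage libraries, at 97.3 to 113 nRPKM, than in all aPDL1 monocyte libraries, at 116 to 120 nRPKM. Its log2 fold change of -0.15 (SE 0.09, adjusted p = 0.16) did not pass. Mcoln1, the calcium channel of the lysosomal membrane, differed by 0.10 (-0.06 to 0.27) in aPDL1 and 0.21 (0.04 to 0.37, adjusted p = 0.0536) in ctrl tumours.

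The 2 proton pump subunits differed in level and in stability. Atp6v1h, a subunit of the cytosolic part of the pump found in all cells, had 29.6 to 35.4 nRPKM in aPDL1 macrophages against 30.9 to 37.3 nRPKM in aPDL1 monocytes, and 27 to 32.2 nRPKM in ctrl macrophages against 26.6 to 37.5 nRPKM in ctrl monocytes. It differed by -0.06 (95% interval -0.22 to 0.11) in aPDL1 and -0.03 (-0.20 to 0.13) in ctrl tumours. Atp6v0d2, a subunit known from osteoclasts and some macrophages, was low, at 0.363 to 2.76 nRPKM in aPDL1 macrophages against 0.15 to 3.2 nRPKM in aPDL1 monocytes. In ctrl tumours it had 2.05, 0.289, 1.03, 0.921 and 1.04 nRPKM in macrophages, against 0.246, 0.175, 0.275, 0.34 and 0.176 nRPKM in monocytes, and was higher by 2.17 (SE 0.77, adjusted p = 0.0281). That call ended without ctrl macrophage replicate 1 (adjusted p = 0.0798) or ctrl monocyte replicate 1, 2 or 5 (adjusted p = 0.0509, 0.0617 and 0.0607).

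Tfeb and Tfe3 were lower in macrophages than in monocytes. Tfeb (chromosome 17, 47737037 to 47792416) had 9.21, 7.71, 9.35, 8.71 and 8.91 nRPKM in aPDL1 macrophages, against 15.4, 13.7, 14.3, 14.9 and 14.5 nRPKM in aPDL1 monocytes. In ctrl tumours Tfeb had 5.58, 8.24, 7.12, 8.05 and 8.57 nRPKM in macrophages, against 13.1, 14.1, 10.5, 8.17 and 15.2 nRPKM in monocytes. The groups were apart in aPDL1 tumours and overlapped in ctrl tumours through monocyte replicate 4. The log2 fold change was -0.71 in aPDL1 (SE 0.13, adjusted p = 1.44e-04) and -0.66 in ctrl tumours (SE 0.13, adjusted p = 4.29e-04). Tfe3 had 30.2, 28.4, 32, 31.4 and 28.9 nRPKM in aPDL1 macrophages, against 43.8, 44.8, 39.2, 40 and 38.1 nRPKM in aPDL1 monocytes, with no overlap, and its log2 fold change was -0.43 (SE 0.13, adjusted p = 0.00924). In ctrl tumours Tfe3 had 19.7 to 30.8 nRPKM in macrophages, against 24.6 to 46.7 nRPKM in monocytes, and was lower by -0.40 on the log2 scale (SE 0.13, adjusted p = 0.0174). The Tfe3 call in ctrl tumours ended without ctrl monocyte replicate 2 or 5 (adjusted p = 0.0531 and 0.0749). Mitf had 3.47 to 5.02 nRPKM in aPDL1 macrophages against 4.33 to 6.68 nRPKM in aPDL1 monocytes, and differed by -0.26 (95% interval -0.52 to -0.01, adjusted p = 0.097). In ctrl tumours it had 2.85 to 3.97 nRPKM in macrophages against 2.97 to 4.38 nRPKM in monocytes, and differed by -0.06 (-0.31 to 0.20).

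Leaving out 1 library at a time kept the count of higher genes at 16 to 18 in aPDL1 tumours and 15 to 20 in ctrl tumours. The 2 lower genes of ctrl tumours became 1 without monocyte replicate 2 or 5 and 4 without monocyte replicate 3. With neighbouring macrophage and monocyte libraries treated as pairs, by limma-voom with a replicate block, further genes passed: in aPDL1 tumours Ctsc and Ctsh were higher and Gla, Mitf and Scarb2 lower, with adjusted p between 0.0123 and 0.0454. In ctrl tumours Ctsh, Lamp1, Cd68, Npc1, Psap and Mcoln1 were then higher and Npc2 and Neu1 lower, with adjusted p between 0.00208 and 0.042. Neu1 also passed as lower in aPDL1 tumours (adjusted p = 0.031), and Ctsk no longer passed in ctrl tumours (adjusted p = 0.0673), with the block as a fixed term in edgeR.

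After aPDL1, 4 of 5 lipid-handling genes and 4 of 8 cysteine proteases were higher in monocytes, and none of these calls held in either fit that accounts for the fibroblast level. In aPDL1 monocytes 13 of the 36 genes were higher than in ctrl monocytes, beside 9.92% of all genes tested, and 2 were lower, beside 15.4%. The higher genes were Gla, Scarb2, Lipa, Ctsc, Mitf, Npc2, Ctsz, Lamp2, Ctss, Psap, Npc1, Man2b1 and Ctsb, by log2 fold changes of 0.33 to 0.64, and the lower ones were Cd63 and Gaa. The median over the 36 genes was 0.28, against 0.02 over all genes tested, with 33 of the 36 positive against 52.0% of all genes. All 5 aPDL1 libraries lay above all 5 ctrl libraries for 5 genes, Ctsc, Ctss, Ctsz, Lipa and Scarb2 (4.54% of all genes did so), and below them for none of the 36 (2.44%). In the same comparison 0 of 19 fibroblast markers rose and 14 fell. The 4 pan-myeloid markers had a median of 0.33, with Ptprc, the leukocyte antigen CD45, higher by 0.66 (SE 0.16, adjusted p = 0.00848), and the macrophage marker Csf1r was higher by 0.41 (SE 0.12, adjusted p = 0.0211). The 4 summed to 4614 to 5606 nRPKM in aPDL1 monocytes and 2871 to 5165 nRPKM in ctrl monocytes, and their part in the result was not tested.

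**Figure D3:**
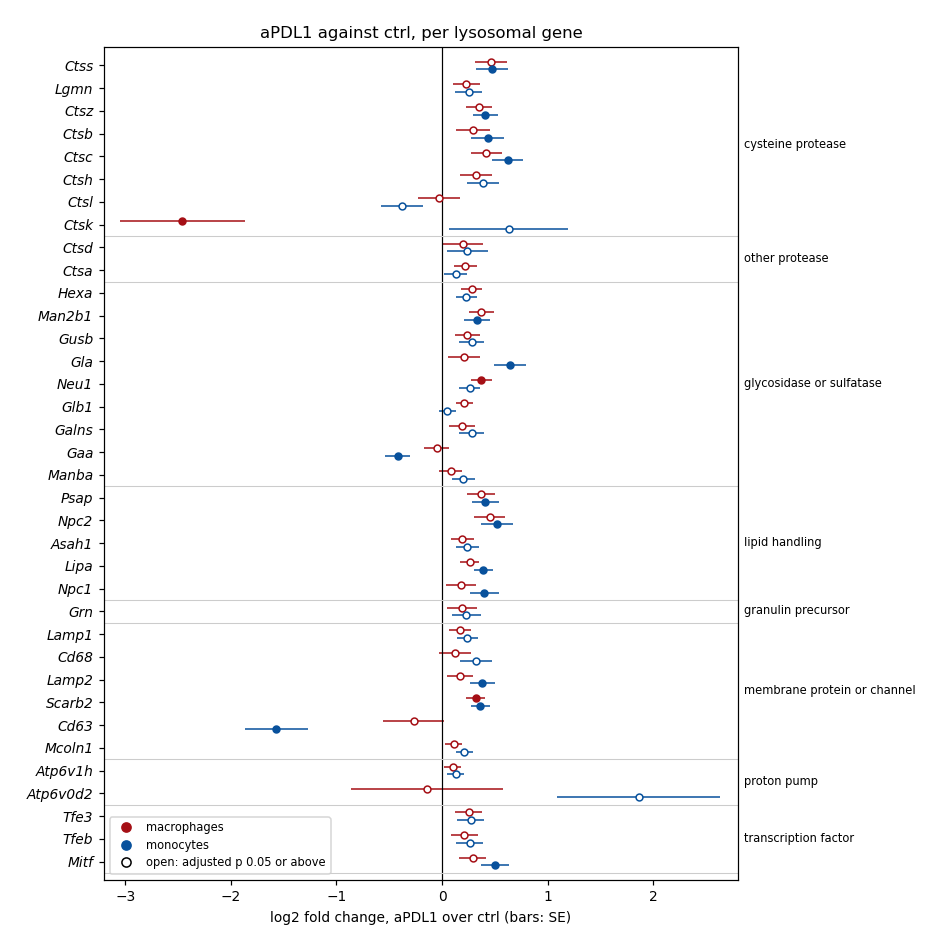
Log2 fold change of aPDL1 over ctrl for each gene, in macrophages (red) and monocytes (blue), with bars of 1 SE and open points where the adjusted p was 0.05 or above. Most points lie between 0 and 0.7 in both cell types. Of the filled points, Ctsk in macrophages and Cd63 and Gaa in monocytes lie below 0, as do some open points.

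Of the cysteine proteases, 4 of 8 rose in aPDL1 monocytes. Ctsc had 792, 868, 630, 727 and 685 nRPKM in aPDL1 monocytes, against 573, 568, 351, 360 and 567 nRPKM in ctrl monocytes, and its log2 fold change was 0.62 (SE 0.15, adjusted p = 0.0084). Ctsz had 823, 970, 799, 829 and 906 nRPKM in aPDL1 monocytes, against 667, 696, 546, 580 and 783 nRPKM in ctrl monocytes, and its log2 fold change was 0.41 (SE 0.12, adjusted p = 0.0217). Ctss had 5158, 5451, 4777, 4918 and 5648 nRPKM in aPDL1 monocytes, against 3378, 4324, 2559, 3868 and 4688 nRPKM in ctrl monocytes, and its log2 fold change was 0.47 (SE 0.15, adjusted p = 0.031). For each of the 3, the lowest aPDL1 library was above the highest ctrl library. Ctsb rose by 0.43 (SE 0.16, adjusted p = 0.0491), with 475 to 664 nRPKM in aPDL1 against 371 to 583 nRPKM in ctrl monocytes. Ctsh, an aminopeptidase, differed by 0.39 (95% interval 0.11 to 0.68, adjusted p = 0.0542) and Lgmn by 0.25 (0.00 to 0.50, adjusted p = 0.16). Ctsl had 158 to 218 nRPKM in aPDL1 against 149 to 358 nRPKM in ctrl monocytes, a difference of -0.38 (-0.78 to 0.02). Ctsk, a collagen-degrading cathepsin, differed by 0.63 (-0.47 to 1.73), Ctsd by 0.24 (-0.14 to 0.61) and Ctsa by 0.13 (-0.08 to 0.33).

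All lipid-handling genes but Asah1 rose in aPDL1 monocytes. Lipa had 51.3, 57.1, 59.2, 45.5 and 52.7 nRPKM in aPDL1 monocytes, all above the 41.9, 44, 40.2, 37.1 and 40.3 nRPKM of ctrl monocytes, with a log2 fold change of 0.39 (SE 0.09, adjusted p = 0.00804). Npc2 had 695, 933, 784, 743 and 871 nRPKM in aPDL1 monocytes, against 482, 599, 402, 595 and 748 nRPKM in ctrl monocytes. The groups overlapped through ctrl replicate 5, and the log2 fold change of Npc2 was 0.52 (SE 0.15, adjusted p = 0.0179). The Npc2 call ended without aPDL1 monocyte replicate 2 (adjusted p = 0.056) or ctrl monocyte replicate 3 (0.0571). Psap rose by 0.41 (SE 0.13, adjusted p = 0.0315), with 2826 to 3339 nRPKM in aPDL1 against 1904 to 3033 nRPKM in ctrl monocytes. The cholesterol transporter Npc1 rose by 0.40 (SE 0.14, adjusted p = 0.0412), with 26.2 to 40 nRPKM against 18.7 to 30.3 nRPKM. Asah1 differed by 0.24 (95% interval 0.03 to 0.45, adjusted p = 0.0993), and Grn by 0.23 (-0.04 to 0.51).

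The glycosidases split. Gla (X chromosome, 134588169 to 134601005), with a pair of E-boxes in its window, had 51.2, 78.6, 61.9, 43.5 and 57.3 nRPKM in aPDL1 monocytes, against 33.3, 40.8, 32.6, 33.4 and 48.8 nRPKM in ctrl monocytes. The groups overlapped through aPDL1 replicate 4 and ctrl replicate 5, and the log2 fold change was 0.64 (SE 0.15, adjusted p = 0.00728). Man2b1 rose by 0.33 (SE 0.12, adjusted p = 0.0463), with 125 to 180 nRPKM in aPDL1 against 101 to 145 nRPKM in ctrl monocytes. Gaa fell, with 16.6, 14.2, 14.3, 14.3 and 14.2 nRPKM in aPDL1 monocytes, against 20.1, 15.8, 25.7, 20.9 and 16.3 nRPKM in ctrl monocytes. Only aPDL1 replicate 1 reached the ctrl range, and the log2 fold change of Gaa was -0.42 (SE 0.12, adjusted p = 0.0165). The Gaa call ended without ctrl monocyte replicate 3 (adjusted p = 0.0628). The other 6 differed by 0.05 for Glb1 (95% interval -0.11 to 0.20) to 0.28 for Gusb (0.05 to 0.52) and Galns (0.04 to 0.52), and did not pass.

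Among membrane proteins and transcription factors, Scarb2, Lamp2 and Mitf rose in aPDL1 monocytes and Cd63 fell. Scarb2 (chromosome 5, 92441311 to 92505657) had 118, 118, 117, 120 and 116 nRPKM in aPDL1 monocytes, all above the 89.1, 104, 81.8, 80.5 and 104 nRPKM of ctrl monocytes, with a log2 fold change of 0.36 (SE 0.09, adjusted p = 0.00782). Its coefficient of variation in aPDL1 monocytes, 1.2%, was the lowest of the 36 genes there. Lamp2 had 130, 139, 129, 125 and 129 nRPKM in aPDL1 monocytes, against 90.2, 112, 76.3, 94.4 and 130 nRPKM in ctrl monocytes, where replicate 5 alone reached the aPDL1 range, and rose by 0.38 (SE 0.12, adjusted p = 0.0281). Mitf had 5.34, 6.68, 4.65, 4.97 and 4.33 nRPKM in aPDL1 monocytes, against 3.79, 3.72, 3.6, 2.97 and 4.38 nRPKM in ctrl monocytes, which overlapped by 1 library, and rose by 0.50 (SE 0.13, adjusted p = 0.0117). Tfeb differed by 0.26 (95% interval 0.00 to 0.51, adjusted p = 0.149) and Tfe3 by 0.27 (0.02 to 0.53, adjusted p = 0.128). Cd63 had 11.2, 21.8, 27.4, 16.2 and 19.4 nRPKM in aPDL1 monocytes, against 54.9, 37.6, 79.5, 88.7 and 22.6 nRPKM in ctrl monocytes, and fell by 1.57 on the log2 scale (SE 0.30, adjusted p = 0.00386). The groups overlapped between aPDL1 replicate 3 and ctrl replicate 5. Lamp1 differed by 0.24 (0.05 to 0.43, adjusted p = 0.0708), Cd68 by 0.32 (0.04 to 0.61) and Mcoln1 by 0.21 (0.05 to 0.38). Atp6v1h differed by 0.13 (-0.04 to 0.29), and Atp6v0d2 by 1.86 (0.35 to 3.37, adjusted p = 0.0814) through a single aPDL1 library, replicate 2, at 3.2 nRPKM.

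The calls in monocytes were lost in both fits that account for the fibroblast level of the libraries. The 6 libraries highest in this level were all ctrl libraries, so the covariate overlaps with treatment. Leaving these 6 out keeps only 2 ctrl libraries per cell type. The fibroblast level and a weaker test therefore cannot be told apart in the lost calls. Across all 20 libraries, with the group means in the model, the slope on the fibroblast level was negative for 32 of the 36 genes, and 12 of these passed at an adjusted p under 0.05 (5.74% of all genes tested), Ctsc, Ctsz, Man2b1, Npc1, Psap and Scarb2 among them. Of the 4 positive slopes that of Ctsl passed (10.8% of all genes). With the fibroblast level as a covariate, or without the 6 fibroblast-rich ctrl libraries, 0 of the 36 genes passed in monocytes, against 13 higher and 2 lower with all libraries. Over all genes the counts also fell, to 2 higher and 1 lower with the covariate and to 67 and 16 without those libraries, against 1526 and 2374 with all libraries. The smallest adjusted p was then 0.203 for Cd63 and 0.195 for Lipa. Without those libraries 27 of the 36 fold changes were still positive with a median of 0.11, and with the covariate 25 were positive with a median of 0.09. Lipa kept a log2 fold change of 0.34, Gla and Ctsc 0.39 and Mitf 0.36 without those libraries, while Cd63 was at -0.65 and Gaa at -0.12. Leaving out 1 library at a time gave between 5 and 20 higher genes. The count was 20 without ctrl monocyte replicate 5, 5 without ctrl replicate 3 or aPDL1 replicate 2, 6 without ctrl replicate 4 or aPDL1 replicate 4, and 7 without ctrl replicate 1 or aPDL1 replicate 1. The lower count was 1 without ctrl replicate 3. The calls of Cd63, Gla, Scarb2, Lipa, Ctsc and Mitf passed in all 20 of these fits, whereas Ctsb passed in 2, Man2b1 in 4, Npc1 and Psap in 6, Ctss and Lamp2 in 13 and Ctsz in 16. With neighbouring libraries as a block, Ctsh, Lamp1 and Neu1 passed as higher too (adjusted p = 0.0337, 0.0461 and 0.0386).

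**Figure D4:**
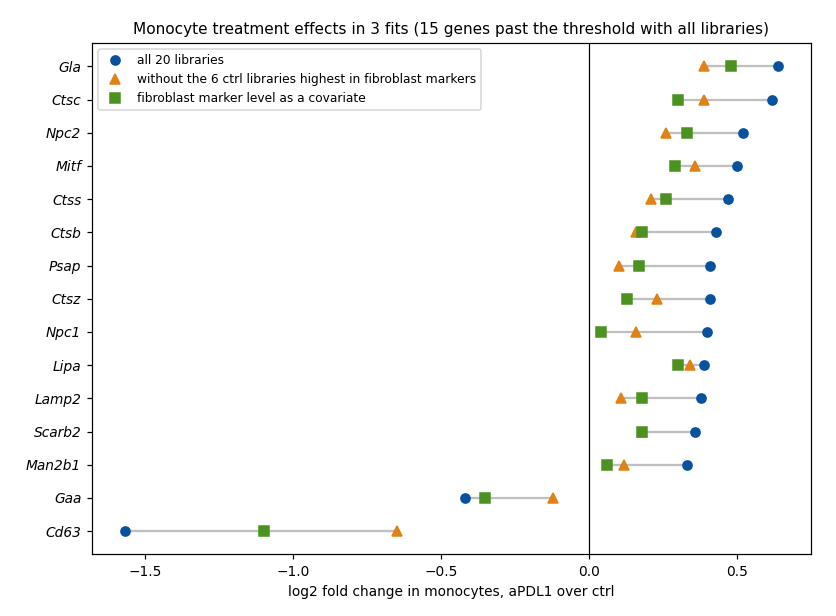
Log2 fold change of aPDL1 over ctrl in monocytes for the 15 genes that passed the test with all libraries, in that fit (circles), without the 6 ctrl libraries highest in fibroblast markers (triangles) and with the fibroblast level as a covariate (squares). All 15 lie on the same side of 0 in the 3 fits, and Cd63, at -1.57 with all libraries, lies at -0.65 without those libraries.

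In macrophages the fold changes after aPDL1 were of similar size, and 3 genes passed. Neu1 and Scarb2 were higher in aPDL1 macrophages, beside 1.73% of all genes tested, and Ctsk was lower, beside 2.92%. The median log2 fold change of the 36 genes was 0.21, against -0.01 over all genes, with 31 positive against 48.3% of all genes. All 5 aPDL1 libraries lay above all ctrl libraries for 5 genes, Ctsc, Ctsh, Ctss, Npc2 and Scarb2 (4.61% of all genes), and below them for 0 (2.37%). In the same comparison 0 of 19 fibroblast markers rose and 11 fell. The 4 pan-myeloid markers had a median of 0.37 and the 10 macrophage markers a median of 0.28, with 0 called in either list. The pan-myeloid markers summed to 4168 to 4762 nRPKM in aPDL1 and 2563 to 4197 nRPKM in ctrl macrophages, and their part in the result was not tested.

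Neu1 (chromosome 17, 34931253 to 34937297) had 30.2, 33.7, 28.2, 35.1 and 32.1 nRPKM in aPDL1 macrophages, against 22.8, 26, 22.2, 29.2 and 21.9 nRPKM in ctrl macrophages. Only ctrl replicate 4 reached the aPDL1 range, and the log2 fold change was 0.37 (SE 0.10, adjusted p = 0.0443). Scarb2 had 101, 101, 97.3, 113 and 112 nRPKM in aPDL1 macrophages, all above the 71.5, 91.6, 81.1, 96.7 and 75.7 nRPKM of ctrl macrophages. Its log2 fold change was 0.32 (SE 0.09, adjusted p = 0.0475), and 0.32 with an adjusted p of 0.0528 with neighbouring libraries as a block. Ctsk (chromosome 3, 95499210 to 95509387) had 0.64, 0.374, 1.39, 0.493 and 0.515 nRPKM in aPDL1 macrophages, against 6.62, 0.678, 4.79, 0.699 and 5.68 nRPKM in ctrl macrophages. It was high in ctrl replicates 1, 3 and 5, the ones rich in fibroblast markers, and low in replicates 2 and 4. Ctsk fell by 2.46 on the log2 scale (SE 0.59, adjusted p = 0.0397), or by 2.01 with an adjusted p of 0.206 with the block. Without the 6 fibroblast-rich libraries its log2 fold change was 0.00. In ctrl monocytes Ctsk had 0.875, 1.09 and 0.735 nRPKM in replicates 1, 3 and 4, the ones among the 6 libraries, and 1.34 and 1.37 nRPKM in replicates 2 and 5. The Ctsk difference between macrophages and monocytes of ctrl tumours, 1.83 (SE 0.57, adjusted p = 0.0133), rested on the same 3 macrophage libraries and was -0.94 without the 6 libraries. In aPDL1 tumours Ctsk differed between the cell types by -1.26 (95% interval -2.38 to -0.13, adjusted p = 0.0717). There aPDL1 monocyte replicate 2 stood at 3.57 nRPKM, against 0.921 to 1.81 nRPKM in the other aPDL1 monocyte libraries.

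**Figure D5:**
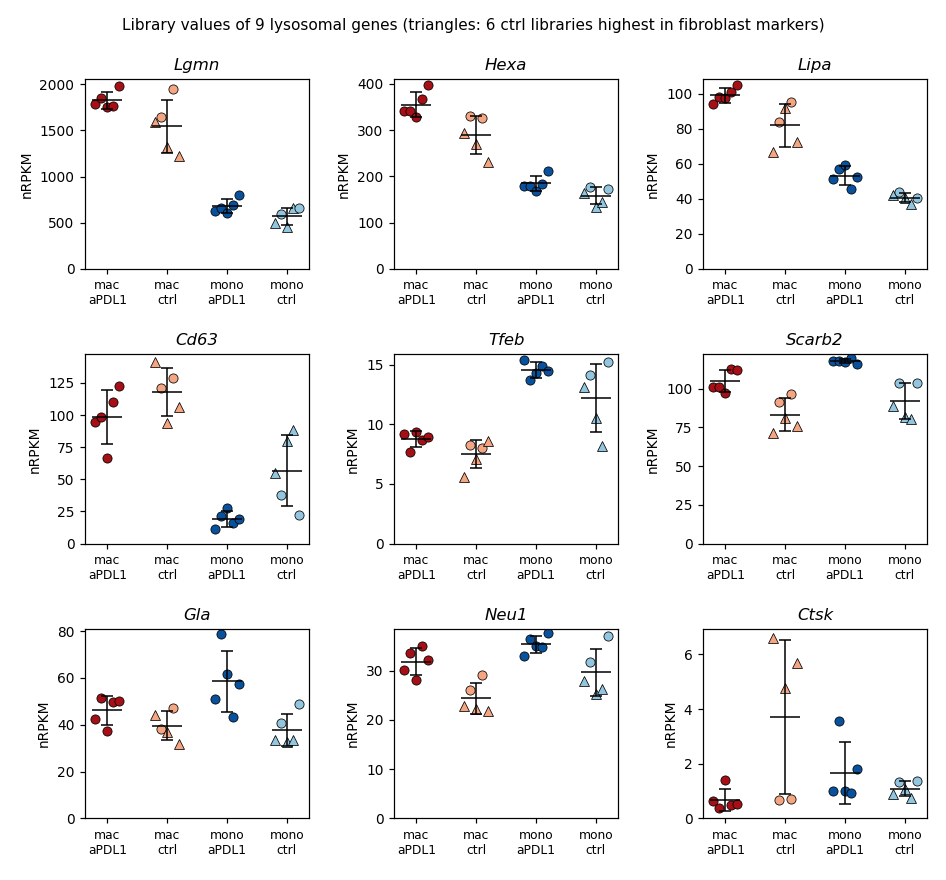
Level of 9 genes in each library in nRPKM, for macrophages (mac) and monocytes (mono) of aPDL1 and ctrl tumours, with mean and SD as black bars and triangles for the 6 ctrl libraries highest in fibroblast markers. Ctsk is highest in the 3 macrophage triangles, followed by aPDL1 monocyte replicate 2 at 3.57 nRPKM, and Cd63 is highest among monocytes in the monocyte triangles.

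The other 33 genes did not pass in macrophages. Nearest were Man2b1 with 0.37 (95% interval 0.14 to 0.60, adjusted p = 0.0669), Npc2 with 0.45 (0.16 to 0.74, adjusted p = 0.0724) and Ctss with 0.46 (0.16 to 0.75, adjusted p = 0.0743). Ctss had 6586, 7322, 6142, 7299 and 6847 nRPKM in aPDL1 macrophages, all above the 5289, 5294, 5012, 5685 and 3395 nRPKM of ctrl macrophages. Npc2 was also apart, with 563, 634, 529, 709 and 594 nRPKM in aPDL1 against 480, 466, 429, 497 and 329 nRPKM in ctrl macrophages. Among the other proteases Ctsb differed by 0.29 (-0.02 to 0.59), Ctsd by 0.20 (-0.17 to 0.58) and Ctsl by -0.03 (-0.42 to 0.37). Lgmn differed by 0.23 (-0.03 to 0.48) and Hexa by 0.28 (0.08 to 0.47, adjusted p = 0.0984). Of the membrane proteins, Lamp1 differed by 0.17 (-0.01 to 0.36), Lamp2 by 0.17 (-0.07 to 0.41), Cd68 by 0.12 (-0.17 to 0.41) and Cd63 by -0.27 (-0.84 to 0.29). The transcription factors differed by 0.21 for Tfeb (-0.05 to 0.46), 0.25 for Tfe3 (-0.01 to 0.50) and 0.29 for Mitf (0.04 to 0.55, adjusted p = 0.173).

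The macrophage calls depended on single libraries. None of the 36 genes passed with the fibroblast level as a covariate (smallest adjusted p = 0.781, Ctsk) or without the 6 fibroblast-rich libraries (0.207, Ctss), where the median log2 fold change was 0.05 and 0.11. The higher count was 13 without ctrl macrophage replicate 4, 6 without ctrl monocyte replicate 5 and 4 without aPDL1 monocyte replicate 3. It was 1 without aPDL1 monocyte replicate 1, 4 or 5 and 0 without aPDL1 macrophage replicate 1, 3, 4 or 5, ctrl macrophage replicate 1, 3 or 5 or ctrl monocyte replicate 1 or 2. Neu1 passed in 10 of the 20 fits and Scarb2 in 8. The Ctsk call ended without aPDL1 macrophage replicate 1, 4 or 5, ctrl macrophage replicate 1, 3 or 5 or ctrl monocyte replicate 1. DESeq2 called 10 higher genes and 1 lower.

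The treatment effect was not shown to differ between the cell types for any of the 36 genes. The test of the difference called 0 of them and 0.0% of the 15390 genes by edgeR, with 3 of the 36 and 980 genes (6.37%) at an unadjusted p under 0.05. Over all genes, DESeq2 called 6 higher and 1 lower and limma-voom with the block 2 higher and 6 lower, edgeR without ctrl monocyte replicate 5 called 41 higher, and none of these were among the 36. The macrophage effect minus the monocyte effect was -3.09 for Ctsk (SE 0.81, adjusted p = 0.688), 1.30 for Cd63 (SE 0.41, adjusted p = 0.688) and 0.37 for Gaa (SE 0.17, adjusted p = 0.763). The 95% interval of Atp6v0d2 ran from -4.06 to 0.06. For the remaining members the difference lay between -0.43 for Gla (95% interval -0.84 to -0.02) and 0.35 for Ctsl (-0.21 to 0.91), with a median over the 36 of -0.05. For Scarb2, which rose in both cell types, it was -0.05 (-0.29 to 0.19). The same numbers give the difference of the macrophage-to-monocyte contrast between aPDL1 and ctrl tumours.

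Further lysosomal genes that are not among the 36 were read from lists of the same biology. Their counts stand beside the shares of all genes tested, which between cell types were 28.2% higher and 25.7% lower in aPDL1 and 24.0% higher and 20% lower in ctrl tumours. After aPDL1 these shares were 1.73% higher and 2.92% lower in macrophages, and 9.92% higher and 15.4% lower in monocytes. With the fibroblast level as a covariate, no gene of these lists passed after aPDL1 in either cell type. Without the 6 fibroblast-rich libraries, Uvrag in macrophages was the 1 gene that passed. Each rise and fall after aPDL1 given below for these lists is thus a call with all libraries. Of 35 further hydrolases and cofactors, 22 were higher and 1 lower in macrophages than in monocytes in aPDL1 tumours, with a median log2 fold change of 0.45. In ctrl tumours 20 were higher and 1 lower, with a median of 0.55. Siae, a sialic acid esterase, had 16.8 ± 0.85 nRPKM in aPDL1 macrophages against 6.95 ± 0.533 nRPKM in aPDL1 monocytes (SD, n = 5 each), a log2 fold change of 1.29 (SE 0.08, adjusted p = 3.12e-10). Acp5, the tartrate-resistant acid phosphatase, was higher by 2.24 in aPDL1 (SE 0.18, adjusted p = 1.16e-08) and 1.82 in ctrl tumours (SE 0.18, adjusted p = 1.9e-07). Naglu, a glucosaminidase of heparan sulfate, was higher by 1.37 in aPDL1 (SE 0.12) and 1.34 in ctrl tumours (SE 0.12). Lyz2, the myeloid lysozyme, was the 1 lower gene in both. After aPDL1, 6 of the 35 rose and 0 fell in macrophages, led by the phospholipase Pla2g15 (0.43, SE 0.11, adjusted p = 0.04), Acp5 (0.70, SE 0.18, adjusted p = 0.0407) and the protease Ctso (0.36, SE 0.09, adjusted p = 0.0407). In monocytes 12 rose and 1 fell, led by Siae (0.45, SE 0.08, adjusted p = 0.00337), the acid phosphatase Acp2 (0.53, SE 0.12, adjusted p = 0.00649) and Sumf1, which activates sulfatases (0.44, SE 0.10, adjusted p = 0.00659). Arsa, arylsulfatase A, was the one that fell.

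Of 16 further subunits of the proton pump, 1 was higher and 6 lower in macrophages in aPDL1 tumours, and 1 higher and 2 lower in ctrl tumours. With neighbouring libraries as a fixed block, 2 were higher and 11 lower in aPDL1 and 3 higher and 8 lower in ctrl tumours. Atp6v1b2 was lower by -0.68 in aPDL1 (SE 0.09, adjusted p = 4.42e-06) and by -0.48 in ctrl tumours (SE 0.09, adjusted p = 2.38e-04), and Atp6v1e1 by -0.70 and -0.69, while the accessory protein Atp6ap2 was higher by 0.40 and 0.52. After aPDL1, Atp6v0a2 rose in macrophages (0.54, SE 0.15, adjusted p = 0.0492), and Atp6v1b2 (0.41, SE 0.09, adjusted p = 0.00582) and Atp6v0a2 (0.45, SE 0.15, adjusted p = 0.0372) rose in monocytes. Of 24 further membrane proteins, 5 were higher and 8 lower in macrophages in aPDL1 tumours, and 4 higher and 7 lower in ctrl tumours. The tetraspanin Cd9 was lower by -1.06 in aPDL1 tumours (SE 0.16, adjusted p = 1.62e-05) and by -0.71 in ctrl tumours (SE 0.16, adjusted p = 0.00114), opposite in sign to the tetraspanin Cd63. The potassium channel Tmem175 was higher by 0.58 in aPDL1 (SE 0.10) and 0.44 in ctrl tumours (SE 0.10). After aPDL1, Laptm4b fell in macrophages (-2.02, SE 0.54, adjusted p = 0.0448) and in monocytes (-2.22, SE 0.54, adjusted p = 0.00837). The metal transporter Slc11a1 rose in macrophages (0.58, SE 0.16, adjusted p = 0.0497), and the chloride exchanger Clcn7 (0.77, SE 0.14, adjusted p = 0.00356) and its partner Ostm1 (0.40, SE 0.12, adjusted p = 0.0212) rose in monocytes among 4 that did.

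Of 20 genes that sort enzymes to lysosomes, 5 were higher and 7 lower in macrophages in aPDL1 tumours, and 6 higher and 5 lower in ctrl tumours, shares near those of all genes. With the block 9 were higher and 8 lower in aPDL1 tumours and 10 higher and 5 lower in ctrl tumours. Sort1, the receptor sortilin, had 0.707 ± 0.208 nRPKM in aPDL1 macrophages against 6.99 ± 1.16 nRPKM in aPDL1 monocytes, and 0.683 ± 0.21 nRPKM in ctrl macrophages against 4.99 ± 1.84 nRPKM in ctrl monocytes (SD, n = 5 each). Its log2 fold change was -3.28 in aPDL1 (SE 0.27, adjusted p = 1.14e-08) and -2.82 in ctrl tumours (SE 0.26, adjusted p = 8.72e-08). The adaptor Gga2 was higher by 1.49 and 1.33 and the phosphotransferase subunit Gnptg, which helps tag enzymes with mannose 6-phosphate, by 0.87 and 0.77. After aPDL1, 0 of the 20 passed in macrophages, while 5 rose in monocytes, led by Ap3b1 (0.36, SE 0.08, adjusted p = 0.00681), Vps26a (0.25, SE 0.07, adjusted p = 0.0162) and Gnptab (0.32, SE 0.10, adjusted p = 0.0276).

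Inhibitors and regulators were read in the same way. The cystatins, which block cysteine cathepsins, had 4 tested genes of 7 listed. Cstb was lower in macrophages by -1.13 in aPDL1 (SE 0.16, adjusted p = 6.33e-06) and -0.87 in ctrl tumours (SE 0.16, adjusted p = 1.6e-04). Cst7 was higher in aPDL1 macrophages than in aPDL1 monocytes (1.05, SE 0.29, adjusted p = 0.0053) and rose after aPDL1 in macrophages (1.12, SE 0.29, adjusted p = 0.0443). In monocytes Cst7 differed by 0.80 after aPDL1 (SE 0.30, adjusted p = 0.0561). The abundant Cst3 had 1659 ± 111 nRPKM in aPDL1 and 1543 ± 301 nRPKM in ctrl macrophages (SD, n = 5 each), and its log2 differences after aPDL1 were 0.09 in macrophages (SE 0.13) and 0.25 in monocytes (SE 0.13). Of 18 regulators of TFEB and mTORC1, 3 were higher and 5 lower in macrophages in aPDL1 tumours, and 3 higher and 2 lower in ctrl tumours. Tfec, a relative of Tfeb found in myeloid cells, was lower by -1.49 in aPDL1 (SE 0.23, adjusted p = 2.26e-05) and -1.14 in ctrl tumours (SE 0.23, adjusted p = 5.09e-04). The Rag GTPase Rragc was higher by 0.51 in aPDL1 (SE 0.07) and 0.55 in ctrl tumours (SE 0.07), and the scaffold Lamtor1 by 0.53 (SE 0.10) and 0.40 (SE 0.10). After aPDL1, 0 of the 18 passed in macrophages, and Tfec (0.71, SE 0.23, adjusted p = 0.0292) and Fnip1 (0.36, SE 0.12, adjusted p = 0.034) rose in monocytes.

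Of 20 autophagy genes, 13 were lower and 1 higher in macrophages than in monocytes in aPDL1 tumours, with a median log2 fold change of -0.33. In ctrl tumours 9 were lower and 2 higher, with a median of -0.24. Atg9a, the lipid scramblase of the forming autophagosome, was lower by -1.08 in aPDL1 (SE 0.09, adjusted p = 1.81e-08) and -1.02 in ctrl tumours (SE 0.09, adjusted p = 5.35e-08), and the kinase Ulk2 was higher by 0.93 and 0.87. After aPDL1, Uvrag, a subunit of the class III PI3-kinase complex, rose in macrophages (0.40, SE 0.10, adjusted p = 0.0397) and in monocytes (0.51, SE 0.10, adjusted p = 0.0036). In monocytes Optn and Nbr1 rose as well and Wipi1 fell (-0.56, SE 0.17, adjusted p = 0.0229). The test of the difference between cell types called 0 genes of any of these lists by edgeR.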

How the data were processed

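RNA was profiled in 20 libraries, 5 per group. The labels' protocols give 0.1 ug of total RNA per library and a stranded kit for total RNA, while the labels list the molecule as polyA RNA. Per the submitters' processing notes, GSNAP and GRCm38 were used. Which version, annotation, counting tool and strand setting were used is not given in the sources used here. For each gene model, per the file headers, the authors deposited a count of reads and an nRPKM value, over 36528 models. The deposited RPKM values equal counts over gene length and over a size factor of the library, which ran from 0.84 to 1.23. Entrez numbers gave 31049 models (85.0%, with 97.97% of counts) a RefSeq symbol on GRCm38.p6. Without a known strand setting, reads of Ctsa, Glb1, Npc1, Asah1 and Galns may be shared with overlapping genes. In the shallowest library 3 counts are 0.099 CPM, a floor for counting error only.

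Counts were filtered with filterByExpr, scaled by TMM and tested in edgeR 4.0.16 (R 4.3.3) with 1 mean per group over all 20 libraries, and p-values were adjusted over the 15390 genes kept. Alternatives were RLE scaling, no filter, DESeq2 1.42.0, limma-voom 3.58.1, the compared groups alone, a block of neighbouring libraries, the mean fibroblast marker level as a covariate, leaving out the 6 libraries highest in it, and leaving out each library in turn. For the further lists, the block and both fibroblast fits were added after seeing the data. Neighbouring sample numbers pair 1 macrophage with 1 monocyte library. In each of the 10 pairs the deviations from the group means correlated (r = 0.22 to 0.72). Ctrl macrophage replicate 2 and aPDL1 monocyte replicate 5 correlated better with a library other than their neighbour. The block fits used these pairs and the main fit did not, and no label says that a pair shares a tumour. Replicate numbers follow the order of the samples and carry no pairing of their own.

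The genes, the further lists and the markers were chosen with earlier results of these data known. Described in full were up to 12 called genes per contrast, by smallest p, and always Tfeb, Tfe3, Mitf, Lamp1, Lamp2, Cd63, Cd68, Ctsb, Ctsd, Ctsl, Ctss and Ctsk. Of each further list up to 3 called genes per contrast were named, by smallest p, and always Cst3, Cstb and Cst7. Genes that were alone in their direction, such as Lyz2 and Arsa, were added after their values were seen.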

Additional observations from a re-analysis of the deposited data

Results flagged for a closer look

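Within groups of 5, 7 of 144 combinations of gene and group held a library whose gap to its nearest neighbour took more than 0.71 of the group's range, a rate that chance gives in about 1 in 20. Ctsa stood at 345 nRPKM in aPDL1 macrophage replicate 5, against 282 to 294 nRPKM in the other 4. In the same library Atp6v0d2 stood at 2.76 nRPKM, against 0.363 to 0.938 nRPKM in the others. Ctsk stood at 1.39 nRPKM in aPDL1 macrophage replicate 3, against 0.374 to 0.64 nRPKM. Grn stood at 1230 nRPKM in ctrl macrophage replicate 4, against 693 to 844 nRPKM. This library held the highest value of its group for 25 of the 36 genes and the lowest mean fibroblast level. Gaa stood at 16.6 nRPKM in aPDL1 monocyte replicate 1, against 14.2 to 14.3 nRPKM. Atp6v0d2 stood at 3.2 nRPKM in aPDL1 monocyte replicate 2, against 0.15 to 0.567 nRPKM. Ctsd stood at 512 nRPKM in ctrl monocyte replicate 5, against 370 to 405 nRPKM. That library held the highest value of its group for 24 of the 36 genes and the lowest mean fibroblast level.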

How the results depend on the processing

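Between cell types, 17 higher genes in aPDL1 tumours became 16 to 19 and 19 in ctrl tumours became 15 to 25 over all alternatives run, the largest with the limma-voom replicate block (edgeR with the fixed replicate block gave 23). The lower count in aPDL1 tumours, 3, was 6 with the limma-voom replicate block, 7 with the fixed one, 5 with the compared groups alone, 6 with the covariate, 5 without the 6 fibroblast-rich libraries and 2 to 3 over single libraries. In ctrl tumours the lower count, 2, was 4 with DESeq2, with either replicate block, with the covariate and without the 6 libraries, 1 with the compared groups alone, and 1 to 4 over single libraries. After aPDL1 the higher count in monocytes, 13, was 8 without a filter, 4 with the compared groups alone, 16 with the replicate block, 0 with the covariate or without the 6 libraries, and 5 to 20 over single libraries. The lower count, 2, was 0 in both fibroblast fits and 1 to 3 over single libraries. In macrophages the higher count, 2, was 0 without a filter, with limma-voom, with the covariate and without the 6 libraries, 10 with DESeq2, 1 with the replicate block, and 0 to 13 over single libraries. The lower count there, 1, was 0 with limma-voom, its replicate block, the covariate and without the 6 libraries, and 0 to 1 over single libraries. Without the 6 libraries Ctsk was at 0.00 after aPDL1 in macrophages (adjusted p = 1.0), and between cell types in ctrl tumours it changed sign, to -0.94 (adjusted p = 0.269). The replicate block changed the call of no member beyond those named in the text. In the further lists it left 3 of the 6 further hydrolases called higher in macrophages, 1 of the 3 autophagy genes and 1 of the 2 regulators called higher in monocytes, and none of Slc11a1, Laptm4b, Cst7 and Uvrag in macrophages, and gave 7 higher membrane proteins in place of 4 between cell types in ctrl tumours. Over all genes, 266 higher and 449 lower in aPDL1 macrophages became 747 and 1131 with DESeq2, 148 and 43 with limma-voom, 195 and 48 with the replicate block, 172 and 306 without a filter, 399 and 794 with the compared groups alone, 1 and 1 with the covariate and 64 and 6 without the 6 libraries. In monocytes 1526 and 2374 became 1408 and 1377 with limma-voom, 678 and 1341 with the compared groups alone, 2 and 1 with the covariate and 67 and 16 without the 6 libraries. The cause of these shifts was not tested, though the fit without the 6 libraries also leaves only 2 ctrl libraries per cell type. Depth limits Ctsk and Atp6v0d2 most, with 25 and 11 counts in their lowest libraries.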
